A study of Homo sapiens with 10 samples.

Results

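The effect of asymmetric dimethylarginine (ADMA) on gene expression under serum starvation was followed on 7 arrays, 4 of LoVo cells kept without serum in the presence of 10 μM ADMA for 96 h (ADMA) and 3 of LoVo cells kept without serum alone for 96 h (SS), out of 10 arrays in the series. The other 3 arrays held cells in DMEM with 10% fetal bovine serum (C); they were kept in parallel for 96 h, entered the estimate of the spread and are given below as the level with serum. LoVo is an established human line from a colorectal adenocarcinoma, so that all 10 arrays describe 1 cancer line. All 19775 genes with a probe set were eligible. Each array (Affymetrix HG-U133 Plus 2.0) held RNA of 1 culture, which the labels call a biological replicate, and the labels do not say whether the cultures of a group were started on different days. If they were not, the p-values measure only the spread between dishes.

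ADMA is arginine with both methyl groups on 1 nitrogen of its side chain. It is released when proteins methylated by the PRMT enzymes are broken down, it competes with arginine at the nitric oxide synthases, it enters and leaves cells through the cationic amino acid transporters, and it is hydrolysed by the DDAH enzymes. Serum starvation withdraws growth factors, insulin, lipids and metals together, and cultured epithelial cells answer it by leaving the cell cycle and raising stress response genes. The comparison asks which of the genes of starved cells sat elsewhere when ADMA was present.

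The signals were those of MAS 5.0, deposited with a trimmed mean of 500.1 on every array, and are given below as log2 values. The median signal was 87.5 to 90.7 in SS and 91.9 to 98.1 with ADMA. Probe sets for the 5′ part of 28S ribosomal RNA read 1345 to 2014 in SS and 795 to 1052 with ADMA, and the ratio of the 3′ to the 5′ probe set of ACTB was 1.13 to 1.23 in SS and 1.02 to 1.05 with ADMA. The bright spiked-in control cre read 26997 to 30800 in SS and 31785 to 37912 with ADMA. The dimmer spiked-in control bioB read 932 to 1020 and 832 to 956. The part of these technical differences in the results below was not tested. The markers of the labelled tissue were present: all 12 colon epithelial markers, among them EPCAM, VIL1, CDX2, CDH17, GPA33 and LGALS4, passed the filter on low signal. With ADMA 8 of them rose and 1 fell (4 and 1 with centring). Fewer markers of other cell types passed the filter: 5 of the 13 for fibroblasts, 3 of the 7 for leukocytes, 2 of the 10 for endothelium and 1 of the 4 for erythroid cells and serum proteins. The summed signal of the 7 leukocyte markers was 4190 to 4860 in SS and 1600 to 2280 with ADMA, nearly all of it lysozyme (LYZ), which fell by 1.43 on the log2 scale; without LYZ the sums were 328 to 342 and 325 to 359, and the leukocyte markers PTPRC, CD14 and NKG7 were under background on all 7 arrays. The 13 fibroblast markers summed to 3420 to 3620 and 3480 to 3750, with COL3A1 and PDGFRB under background on all 7 arrays; of the 5 tested, LUM (-0.90) and ACTA2 (-0.51) fell and VIM (0.46) rose. Since a mean signal does not separate cell number from RNA per cell, a gene that is lower in a culture may be lower in every cell or absent from more of them.

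With ADMA, 1935 of the 12342 genes tested were higher and 1704 were lower than in SS, counting a gene when limma gave a Benjamini-Hochberg adjusted p under 0.01 and the change was 1.2-fold or more. These are 15.7% and 13.8% of the genes tested, and 8703 genes were not called. The differences were mostly small. Of the higher genes 1187 rose less than 1.5-fold, 231 at least 2-fold and 21 at least 4-fold, and of the lower genes 1002 fell less than 1.5-fold, 157 at least 2-fold and 5 at least 4-fold. The median difference of all genes tested was 0.03 on the log2 scale, and the 5th and 95th percentiles were -0.67 and 0.72. The SS and ADMA arrays did not overlap for 46.1% of the genes tested. When each array was first centred on its median, the median of all genes moved to -0.09 and 902 genes were higher against 2096 lower, so that the balance between rises and falls depends on the scaling, and small rises have to be read with that shift in mind. Counts of a gene list given below are to be set against 15.7% higher and 13.8% lower. Counts given below with centring are to be set against the 902 and 2096 of all 12342 genes tested instead. Each gene was read from its brightest probe set. Of the 2071 called genes with over 1 tested probe set, 512 had every tested probe set called the same way. For 43 of the 2071 some probe set was called the other way. With the mean over a gene's probe sets instead, 1376 genes were higher and 928 lower, and 116 calls were lost among the 494 named genes, as is said beside the main ones.

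**Figure D1:**
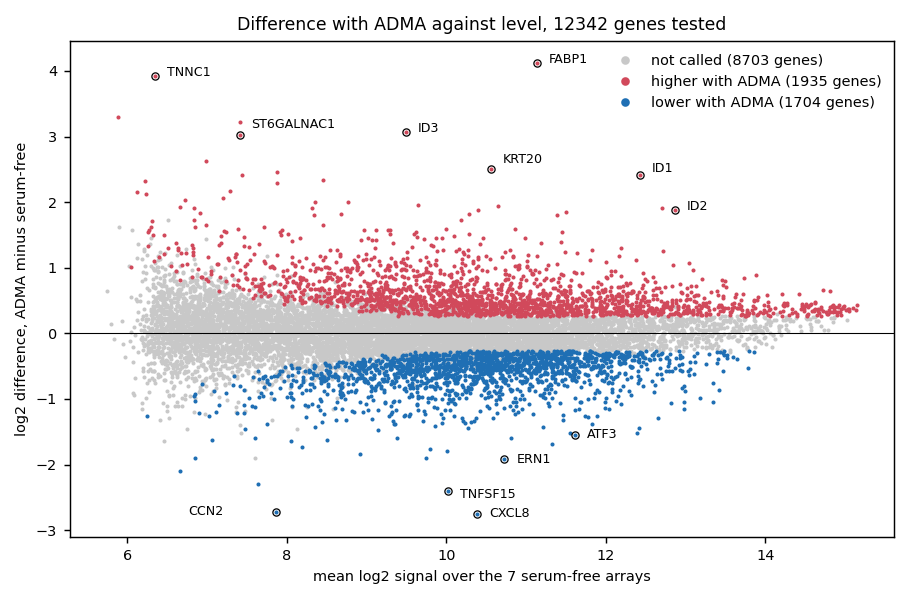
Log2 difference between ADMA and serum-free arrays (vertical) against the mean log2 signal over the same 7 arrays (horizontal), with 1 point per gene tested, red where the gene was called higher (1935 genes), blue where it was called lower (1704 genes) and grey where it was not called (8703 genes). FABP1 and ID1 to ID3 stand far above the other genes of their signal, CXCL8, TNFSF15 and ERN1 far below, and the brightest genes at the right end lie above 0 as a group.

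FABP1, the liver type fatty acid-binding protein of absorptive enterocytes, showed the largest rise of the genes called. Its log2 signal was 8.77, 8.70 and 8.89 on the 3 SS arrays and 12.81, 12.86, 12.91 and 13.03 on the 4 ADMA arrays, with no overlap, and the difference was 4.12 (standard error 0.09, adjusted p = 2.16e-12). In cells with serum it was lower than in SS, at 7.31 ± 0.19 (SD, n = 3). The second was TNNC1, the calcium-binding subunit of slow muscle and heart troponin, which read 2.91, 4.75 and 4.64 on the 3 SS arrays and 7.63, 7.66, 8.31 and 8.53 on the 4 ADMA arrays. All 3 SS values were under the background level of their arrays, so that only a bound can be given, and ADMA cells were at least 5.32-fold higher (adjusted p = 1.64e-06). The same held for LINC00261, a long non-coding RNA of endodermal tissues, which was at least 3.21-fold higher, for XAGE2, a cancer-testis antigen, at least 3.03-fold, and for PRLR, the prolactin receptor, at least 2.89-fold. The bound is the mean ADMA signal over the background level that stands in for each SS array.

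The ion channel TRPA1, a sensor of irritants, rose by 3.23 (standard error 0.51), with SS values of 3.80, 6.15 and 6.76, the lowest of which was under background, and ADMA values of 8.78, 8.52, 9.15 and 8.74. ST6GALNAC1, the sialyltransferase that makes the sialyl-Tn antigen on mucins, rose by 3.03 (standard error 0.19) and CLDN11, a tight junction claudin, by 2.62 (standard error 0.23). KIFC1, a kinesin that draws spindle poles together, rose by 2.46 (standard error 0.31), from SS values spread between 5.72 and 7.57 to ADMA values within 8.82 and 9.14. The transcription factor MYCN rose by 2.41 (standard error 0.22), tryptophan dioxygenase (TDO2) by 2.34 (standard error 0.17), fibronectin (FN1) by 2.29 (standard error 0.36) and NOX1, the NADPH oxidase of colon epithelium, by 2.17 (standard error 0.35). The drug-metabolizing enzyme CYP2B6, the chemoattractant GPR15LG, the elastic fibre protein FBLN5 and the collagen COL21A1 rose by 2.16, 2.06, 2.03 and 2.01. CYP2B6 was above background on 1 of 3 SS arrays and TRPA1, ST6GALNAC1, KIFC1, NOX1, GPR15LG and FBLN5 on 2 of 3, so that their differences rest in part on signals that cannot be told from background. The calls of CYP2B6 and GPR15LG were lost when the second SS array was left out, at adjusted p = 0.0146 and 0.0167, and that of GPR15LG without the first as well, at 0.0176. CLDN11, CYP2B6, MYCN and PRLR were not called with the mean over probe sets.

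CXCL8, the chemokine that attracts neutrophils, and CCN2, the connective tissue growth factor and a target of YAP and TGF-β signalling, showed the largest falls, which were too alike to be ordered. CXCL8 read 12.13, 11.85 and 11.89 on the 3 SS arrays and 9.03, 9.81, 9.51 and 8.46 on the 4 ADMA arrays, and the difference was -2.75 (standard error 0.25, adjusted p = 8.71e-07). Both of its probe sets fell. With serum it stood at 7.30 ± 0.35 (SD, n = 3), under every one of the starved cultures. CCN2 was at -2.72 (standard error 0.38), from 9.46, 9.40 and 9.39 in SS, which lay close together, to 7.35, 6.73, 7.42 and 5.27 with ADMA, where the fourth array was under background. TNFSF15, a TNF family ligand of death receptor 3, fell from 11.38, 11.39 and 11.44 to 9.01, 8.83, 9.25 and 8.88, a difference of -2.41 (standard error 0.12).

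TRIM22, an interferon-inducible antiviral factor, was at -2.30 (standard error 0.29), and ERN1, which encodes the endoplasmic reticulum stress sensor IRE1α, at -1.92 (standard error 0.08). Further down stood C17orf67 at -1.90, the serine protease TMPRSS4 at -1.84, the epithelial keratin KRT80 at -1.79, the secretory cell transcription factor BHLHA15 at -1.76, and TNFSF9, the ligand of the receptor 4-1BB on T cells, at -1.69. PURPL, a long non-coding RNA induced by p53, was at -1.65, the cornified envelope protein SCEL at -1.63, the vesicle coat subunit SEC24D at -1.62, the transcriptional repressor BCL6 at -1.60, the membrane adaptor FRMD5 at -1.60, and ATF3 at -1.55. The amyloid precursor relative APLP1 (-2.10), the cell adhesion protein NECTIN4 (-1.90) and LYPD3 (-1.74) were also among the 20 largest falls, but on leaving out the first SS array their adjusted p were 0.0172, 0.0156 and 0.0151, on leaving out the second 0.0106, 0.0211 and 0.0105, and on leaving out the third those of APLP1 and NECTIN4 were 0.0146 and 0.0136. The call of APLP1 was also lost without the second ADMA array (adjusted p = 0.0113) and that of NECTIN4 without the third (adjusted p = 0.0122).

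Genes of the absorptive colon epithelium moved upward where they were called. Of the 22 tested genes of enterocyte and colonocyte differentiation, 11 rose and none fell, with a median difference of 0.41 against 0.03 over all genes tested; 18 further members with a probe set were under the filter. KRT20, the keratin of differentiated intestinal epithelium, read 9.12, 9.30 and 8.99 on the 3 SS arrays and 11.52, 11.58, 11.86 and 11.57 on the 4 ADMA arrays, a difference of 2.498 (standard error 0.10, adjusted p = 7.73e-10). GPA33, the A33 antigen of the basolateral membrane, read 10.32, 10.23 and 10.51 on the 3 SS arrays and 12.17, 12.11, 12.14 and 12.21 on the 4 ADMA arrays, a difference of 1.80 (standard error 0.07). The ADMA arrays of both genes lay above every SS and every C array, since with serum the means were 8.14 and 11.08.

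Smaller rises were seen for the adhesion protein CEACAM7 (0.78), the brush border myosin MYO1A (0.78), the steroid enzyme HSD17B2 (0.71), the brush border scaffold USH1C (0.66), carbonic anhydrase CA2 (0.65), the lectin LGALS4 (0.59) and the peptidase DPP4 (0.57). Of the transcription factors of the intestine 7 of 15 rose and 2 fell, or 4 and 2 with centring. CDX1 and CDX2, the caudal homeobox factors that specify intestinal identity, rose by 1.55 (standard error 0.24) and 1.21 (standard error 0.09). CDX2 read 8.25, 8.30 and 8.36 on the 3 SS arrays and 9.54, 9.53, 9.55 and 9.43 on the 4 ADMA arrays against 9.63 ± 0.15 (SD, n = 3) in C, so that the ADMA level was close to that with serum. The ADMA values of CDX1 spread more, at 7.79, 8.63, 8.74 and 9.14. EHF (0.58), HES1 (0.48) and KLF5 (0.41) rose less, the latter pair not with the mean over probe sets, and the epithelial factor ELF3 and the progenitor factor SOX9 fell, by differences of -0.75 and -0.29.

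Mucus genes were mixed. Beside ST6GALNAC1, the mucus component FCGBP (1.15), the membrane mucin MUC3A (0.83) and GALNT12 (0.71), which starts O-glycosylation, rose. The trefoil peptides TFF1 (-1.07) and TFF2 (-0.84) and the enzymes GALNT5 (-0.85), ST3GAL1 (-0.69), B3GNT7 (-0.66), GALNT3 (-0.52) and C1GALT1 (-0.41) fell, which makes 4 higher and 7 lower of 27. Among Wnt targets and stem cell genes 6 of 21 rose, led by the ligand WNT5A (1.62) and the Wnt inhibitors NOTUM (0.98) and AXIN2 (0.65), and 3 fell, led by RNF43 (-0.88), a ligase that removes Wnt receptors, while DKK1, a secreted inhibitor, was at -0.54. Over all genes tested 15.7% were higher and 13.8% lower, so that the mucus rises and the Wnt falls were near the general shares.

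The inhibitors of differentiation ID1, ID2 and ID3 pair with basic helix-loop-helix factors and keep them from binding DNA, and they are the classic targets of BMP-SMAD signalling. ID3 read 7.71, 7.99 and 7.50 on the 3 SS arrays and 10.77, 10.55, 10.94 and 10.98 on the 4 ADMA arrays, a difference of 3.08 (standard error 0.12, adjusted p = 5.8e-10). ID1 read 10.98, 11.01 and 11.16 on the 3 SS arrays and 13.46, 13.45, 13.39 and 13.56 on the 4 ADMA arrays, a difference of 2.41 (standard error 0.06, adjusted p = 4.52e-12). ID2 read 11.72, 11.85 and 11.83 on the 3 SS arrays and 13.78, 13.72, 13.54 and 13.67 on the 4 ADMA arrays, a difference of 1.87 (standard error 0.06, adjusted p = 1.26e-10). None of the 3 overlapped between groups, which also held for 46.1% of all genes tested. The 3 lay differently against cells with serum: ID1 lay above its C level of 12.22, ID2 a little under its C level of 13.98, and ID3 under its C level of 12.12. ID4 was at 0.50 (standard error 0.21, adjusted p = 0.0678) and its groups overlapped. The letters GGCGCC, the core of a BMP response element, were found in 0 of the 4 ID promoters (RefSeq, GRCh38.p14, 250 bases before to 50 bases after the start), against 30.7% of the genes tested. Elements further from the start lie outside this window, so that the search does not show whether the ID genes have one.

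The other members of the BMP list did not follow as a group. Of its 26 tested genes, ID1, ID2 and ID3 included, 5 rose and 8 fell, with a median of -0.06. Over all genes tested 15.7% rose and 13.8% fell. SMAD6 and SMAD7, inhibitory SMADs induced by the pathway, were at 0.11 (standard error 0.09, adjusted p = 0.343) and -0.17 (standard error 0.10, adjusted p = 0.174), neither of which was called. The homeobox targets MSX1 and MSX2 fell, by differences of -0.65 and -0.63, as did the receptor ACVR1 (-0.93), the ligand BMP2 (-0.55), the ubiquitin ligase SMURF1 (-0.60), SMAD5 (-0.33), the activin trap follistatin (FST, -0.89) and the stress cytokine GDF15 (-1.05). The ligand BMP4, bright in LoVo cells, was at 0.15 (standard error 0.10, adjusted p = 0.249) and was not called. The secreted BMP antagonist GREM1 rose by 0.92 (standard error 0.21), a call that was lost without the first or the third SS array (adjusted p = 0.0167 and 0.0137). Of the 24 genes of the TGF-β and activin pathway 2 rose and 10 fell, among the latter the target PMEPA1 (-0.83), the receptors ACVR2B (-0.66) and TGFBR2 (-0.58) and the corepressor SKI (-0.55). Of these MSX1, MSX2, SMURF1, ACVR2B, TGFBR2 and SKI lost their call when probe sets were averaged.

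**Figure D2:**
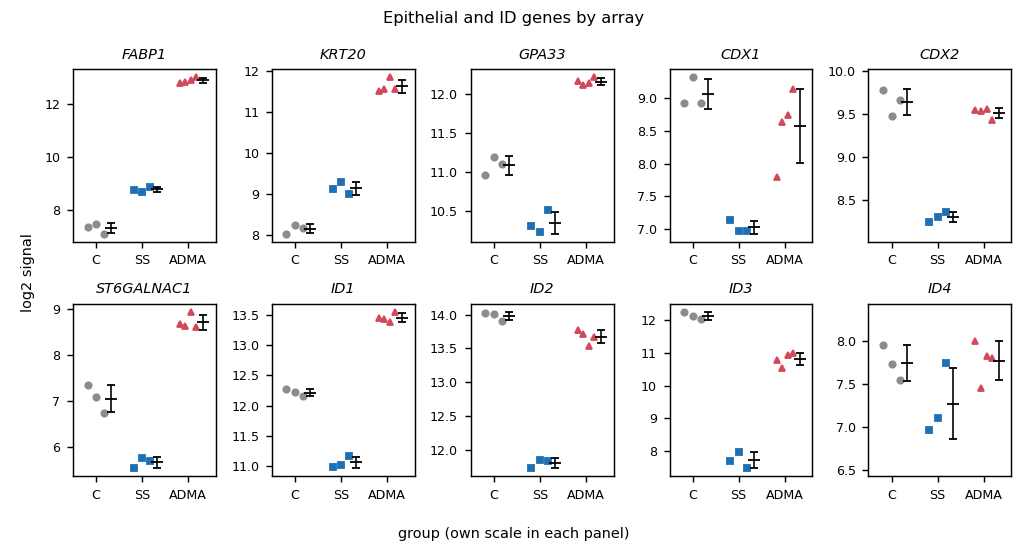
Log2 signal (vertical, own scale in each panel) of epithelial and ID genes on each array of cells with serum (C, grey circles), serum-free cells (SS, blue squares) and serum-free cells with ADMA (red triangles), with the mean and SD of each group in black beside the points. FABP1, KRT20 and GPA33 with ADMA lie above both other groups, CDX2 lies near its level with serum, ID1 lies above it, ID3 under it, and the groups of ID4 overlap.

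Genes of cell division rose with the highest share of any list. Of the 70 mitosis genes, all of which were tested, 65 rose and none fell, with a median difference of 0.97 against 0.03 over all genes tested. The median deviation of the 70 genes was between -0.56 and -0.54 on the 3 SS arrays and between 0.38 and 0.48 on the 4 ADMA arrays. The ADMA level was under that with serum: the median member was -0.89 against C with ADMA and -1.78 against C in SS, differences that share arrays with the one above. With the arrays centred on their medians 60 rose.

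BIRC5, the survivin subunit of the chromosomal passenger complex, read 9.43, 9.40 and 9.42 on the 3 SS arrays and 10.82, 11.04, 10.91 and 10.96 on the 4 ADMA arrays, a difference of 1.52 (standard error 0.06, adjusted p = 7.73e-10), against 12.44 with serum. CENPF, a kinetochore protein, rose by 1.46 (standard error 0.10), and BUB1B, the checkpoint kinase that holds cells in metaphase, by 1.45 (standard error 0.06). DLGAP5, which bundles spindle microtubules at the kinetochore, rose by 1.45 (standard error 0.07) and CENPA, the centromeric histone, by 1.42 (standard error 0.12). These 5 were picked as the largest rises of the list. None of them overlapped between groups, which also held for 46.1% of all genes tested.

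Promoters of late cell cycle genes are known to carry CCAAT boxes and the cell cycle homology region, TTTGAA, which the MuvB complex binds. In RefSeq promoters (GRCh38.p14, 250 bases before to 50 bases after the start of the gene), TTTGAA was found on either strand in 37 of the 59 mitosis genes with an entry, or 62.7%, against 9.98% of the genes tested with an entry and 15.4% of all 27305 promoters. CCAAT was found in 71.2% of them, against 36.6% and 35.7%, and is not particular to them: it was found in 56.8% of the promoters of the DNA replication list and 82.1% of those of the unfolded protein response list, which fell. Of the 5 genes above, 4 have an entry, and their 250 bases before the start are given 5′ to 3′ with both motifs and their reverse complements, ATTGG for the CCAAT box, in capitals, to show where the motifs of this group lie. CENPF has 3 CCAAT boxes and its only TTTGAA match lies after the start, BUB1B has 1 TTTGAA and no CCAAT, and DLGAP5 and CENPA have both.
CENPF promoter (chr1:214602945-214603194, strand +): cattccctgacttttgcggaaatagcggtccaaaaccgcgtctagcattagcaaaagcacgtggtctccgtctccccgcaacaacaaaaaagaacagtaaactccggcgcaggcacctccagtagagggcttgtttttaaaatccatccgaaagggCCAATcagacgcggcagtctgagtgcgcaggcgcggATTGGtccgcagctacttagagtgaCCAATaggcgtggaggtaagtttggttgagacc
BUB1B promoter (chr15:40160819-40161068, strand +): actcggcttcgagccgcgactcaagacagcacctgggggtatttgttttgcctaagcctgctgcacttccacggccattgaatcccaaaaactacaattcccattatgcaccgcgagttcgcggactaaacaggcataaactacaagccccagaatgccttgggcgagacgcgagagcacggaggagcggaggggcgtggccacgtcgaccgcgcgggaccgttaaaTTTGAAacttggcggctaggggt
DLGAP5 promoter (chr14:55191586-55191835, strand -): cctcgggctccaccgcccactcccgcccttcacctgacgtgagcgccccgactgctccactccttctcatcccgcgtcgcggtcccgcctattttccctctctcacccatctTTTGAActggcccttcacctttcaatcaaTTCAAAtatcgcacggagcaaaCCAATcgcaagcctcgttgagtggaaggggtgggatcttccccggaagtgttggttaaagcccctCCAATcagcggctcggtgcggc
CENPA promoter (chr2:26785806-26786055, strand +): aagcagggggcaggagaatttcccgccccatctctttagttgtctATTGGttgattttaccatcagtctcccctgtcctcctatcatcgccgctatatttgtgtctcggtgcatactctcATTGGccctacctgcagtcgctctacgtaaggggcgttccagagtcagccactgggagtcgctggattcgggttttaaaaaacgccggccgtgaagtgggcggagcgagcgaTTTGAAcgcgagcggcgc

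Genes that copy DNA rose as well. Of the 51 DNA replication genes 32 rose and none fell, with a median of 0.42; with centring 19 rose and 1 fell. MCM2, a subunit of the replicative helicase, read 9.57, 9.46 and 9.63 on the 3 SS arrays and 10.71, 10.83, 10.81 and 10.93 on the 4 ADMA arrays, a difference of 1.26 (standard error 0.07), and lay under its 12.09 with serum. Its partners MCM3 and MCM7 rose by 1.03 and 1.03, the polymerase δ subunit POLD3 by 1.13 and the clamp loader subunit DSCC1 by 1.03. The E2F core (TTGGCGC or TTCCCGC and, further, TTCGCGC or else TTGCCGC, on either strand) was found in 29 of 44 replication promoters, or 65.9%, against 20.5% of the genes tested and 13.1% of all promoters. TTTGAA was found in 1 of the 44.

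Of 24 E2F and RB regulators 11 rose, led by UHRF1 (1.32), which carries DNA methylation through replication, E2F8 (1.21), cyclin E2 (CCNE2, 1.10), TFDP2 (1.04) and SKP2 (1.03), the ligase subunit that degrades p27, and 4 fell, RB1 (-0.50), RBL2 (-0.49), E2F7 (-0.50) and LIN37 (-0.48), none of which was called with the mean over probe sets. Homologous recombination and Fanconi repair genes rose in 15 of 26 cases with none lower (10 higher and 1 lower with centring), led by RAD51AP1 (1.002), the helicase BLM (0.97), RMI2 (0.96) and the nuclease EXO1 (0.89). Nucleotide synthesis genes rose in 16 of 28 cases and fell in 2, or 9 and 2 with centring, and the contrast lay within ribonucleotide reductase: the S phase subunit RRM2 rose by 1.09 (standard error 0.07), and RRM2B, the subunit that p53 induces, fell by 0.75. Of 15 tested genes of the list on replication-dependent histones and chromatin proteins 7 rose and 2 fell: HMGB1 (0.89) and HMGB3 (0.82) were the largest rises, and the linker histone H1-2 (-0.68) was the larger fall.

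The CDK inhibitors were called in both directions. Of 15 CDK inhibitors, G1 cyclins and their kinases 7 fell and 4 rose. CDKN1A, which encodes p21, read 12.76, 12.56 and 12.80 on the 3 SS arrays and 11.66, 11.51, 11.56 and 11.46 on the 4 ADMA arrays, a difference of -1.16 (standard error 0.08, adjusted p = 5.92e-08), and lay above its 10.90 with serum. The p57 gene CDKN1C (-0.91), the p19 gene CDKN2D (-0.78), the p27 gene CDKN1B (-0.75) and the p15 gene CDKN2B (-0.65) fell as well. CDKN3 (0.72), a phosphatase that peaks in mitosis, CDK4 (0.70), the p16 gene CDKN2A (0.63) and CDK2 (0.52) rose. The calls of CDKN1C, CDKN2D, CDKN2B, CDKN2A and CDK2 were lost when probe sets were averaged. Genes of FOXO and quiescence programmes fell in 13 of 25 cases and rose in none, among them BCL6, the insulin-like growth factor binding proteins IGFBP3 (-1.26) and IGFBP1 (-1.23), the stress-inducible SESN1 (-1.18), CITED2 (-1.04), and FOXO1 (-1.01) and FOXO3 (-0.96) themselves, which are the transcription factors held out of the nucleus by insulin signalling, although these 2, CITED2 and IGFBP1 were not called with the mean over probe sets.

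**Figure D3:**
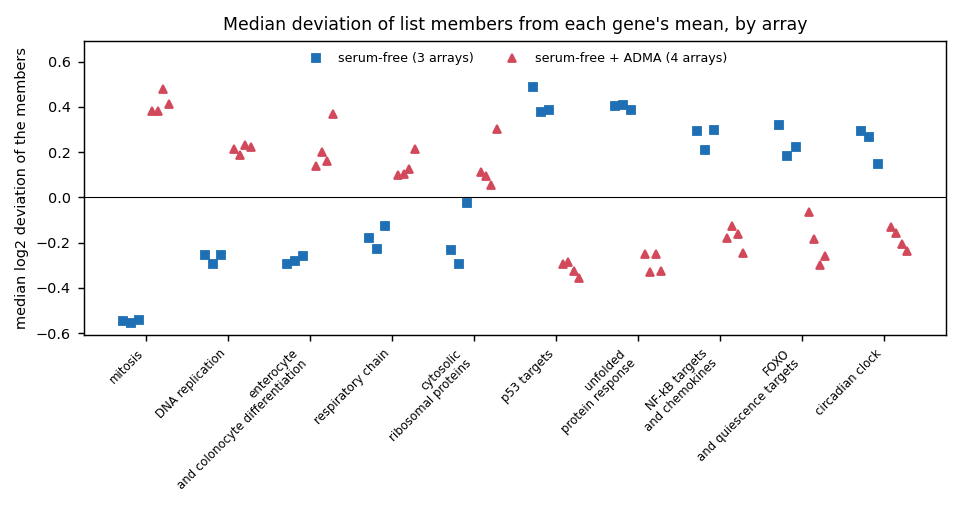
Median over the tested members of 10 gene lists of the log2 deviation from each gene's mean over the 7 arrays (vertical), for each SS array (blue squares) and each ADMA array (red triangles). Since the mean is taken over the same arrays, the groups lie on either side of 0 by construction, and what the plot shows is the spread within a group against the gap between groups; the gap is widest for mitosis, -0.56 to -0.54 against 0.38 to 0.48, and 1 SS array of the cytosolic ribosomal proteins lies near 0.

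p53 target genes fell. Of 36 tested 27 fell and 1, the Krüppel-like factor KLF4 (0.32), rose, with a median of -0.73, and KLF4 was not called with quantile normalization or centring. ATF3, a stress transcription factor shared with the amino acid response, read 12.41, 12.61 and 12.48 on the 3 SS arrays and 10.94, 11.15, 10.92 and 10.79 on the 4 ADMA arrays, a difference of -1.55 (standard error 0.09, adjusted p = 1.4e-08). The polo-like kinases PLK2 (-1.52) and PLK3 (-1.26), which unlike PLK1 answer stress, the translesion polymerase POLH (-1.23), SESN1 (-1.18) and IGFBP3 (-1.26) fell, and so did the repair genes DDB2 (-0.69) and XPC (-0.51). With serum ATF3 stood at 10.11.

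Genes of apoptosis were called in both directions. Of the pro-apoptotic genes 6 rose and 7 fell of 31, and of the anti-apoptotic genes 1 rose and 5 fell of 15. The pro-apoptotic shares are near the 15.7% and 13.8% of all genes tested. With centring 2 rose and 7 fell, beside 902 and 2096 of the 12342 genes tested. Among death receptors, TNFRSF1A, the main receptor of TNF, rose by 0.74 (standard error 0.11), whereas TNFRSF10B, a TRAIL receptor, fell by 0.79, FAS by 0.71 and the decoy receptor TNFRSF10D by 1.16. BCL2 rose by 1.02 (standard error 0.11), and its relatives BCL2L2 (-0.73) and BCL2L1 (-0.37), the caspase inhibitor XIAP (-0.59) and the BH3-only genes BCL2L11 (-0.58), PMAIP1 (-0.40), BNIP3 (-0.48) and BNIP3L (-0.45) fell. The executioner and initiator caspase genes CASP8 (0.46), CASP6 (0.29) and CASP2 (0.28) and the BH3-only gene BID (0.29) rose. With the mean over probe sets BCL2, BCL2L1, XIAP, TNFRSF10B and the 3 caspases were not called, and with centring CASP6, CASP2 and BID were not.

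Of 27 cell death genes that the study names from a PCR array run on other cultures, 22 were tested here, and 3 rose and 10 fell. The falls included the cathepsin CTSS (-1.17), GALNT5, the autophagy receptor SQSTM1 (-0.84), GADD45A (-0.66), HSPBAP1 (-0.45), the kinase MAPK8 (-0.38) and ATG12 (-0.33), and the rises TNFRSF1A, the small GTPase RAB25 (0.42) and cathepsin B (CTSB, 0.42). On its PCR array the study reports CTSS, SQSTM1, GADD45A, MAPK8, ATG12, FAS and XIAP as lowered by ADMA, as here. It reports TNFRSF1A and CTSB as lowered too, unlike here. Further genes that it reports as lowered were not called here: BIRC2 (-0.04), CASP9 (0.10), CFLAR (0.04), CYLD (-0.65), APP (-0.20) and ATG5 (-0.17). HSPBAP1, ATG12 and CTSB lost the call when single arrays were left out, and with the arrays centred on their medians 1 rose and 11 fell. Autophagy genes were lower in 9 and higher in 2 of 34 cases, beside 13.8% and 15.7% of all genes tested. WIPI1 (-1.26), SQSTM1, GABARAPL1 (-0.67) and MAP1LC3B (-0.51), which encodes the lipidated marker LC3B, fell. Lysosomal genes rose in 8 and fell in 3 of 30 cases as deposited, and in 1 and 5 with centring, and leaving out the first SS array left 3 rises.

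The unfolded protein response fell. Of its 30 tested genes 22 were lower and 0 higher, the median being -0.75. The response senses misfolded proteins in the endoplasmic reticulum through 3 membrane proteins, IRE1α, PERK and ATF6, and raises chaperones, oxidases and the degradation machinery. ERN1, the IRE1α gene, read 11.87, 11.85 and 11.76 on the 3 SS arrays and 9.88, 10.01, 10.02 and 9.72 on the 4 ADMA arrays, a difference of -1.92 (standard error 0.08, adjusted p = 1.38e-09), EIF2AK3, the PERK gene, fell by 1.17, and ATF6 was at 0.03 (standard error 0.07) and was not called. DDIT3, which encodes CHOP, read 11.42, 11.28 and 11.27 on the 3 SS arrays and 10.08, 9.79, 10.25 and 10.33 on the 4 ADMA arrays, a difference of -1.21 (standard error 0.11, adjusted p = 1.02e-06), and its level lay above the 8.73 of cells with serum.

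Downstream of the sensors, the oxidase ERO1B (-1.59), the co-chaperone DNAJB9 (-1.52), the secreted factor MANF (-0.98), the degradation components HERPUD1 (-0.76) and SEL1L (-0.75), XBP1 (-0.75), DNAJC3 (-0.73) and HSP90B1 (-0.41) fell. With the mean over probe sets SEL1L and HSP90B1 were not called and XBP1 was at 0.07. The share called in this list was the same at 22 of 30 with quantile normalization, and the median member was -0.02 against C. The ATF4 amino acid response was lower in 14 and higher in 1 of 35 cases. Beside ATF3 and DDIT3 the falls were SESN2 (-0.97), the tRNA exporter XPOT (-0.89), the amino acid transporters SLC1A4 (-0.79) and SLC7A11 (-0.70), CEBPB (-0.62) and the glutathione-degrading CHAC1 (-0.46), while asparagine synthetase (ASNS), the common readout of the response, was at 0.01 (standard error 0.05, adjusted p = 0.883) and was not called.

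**Figure D4:**
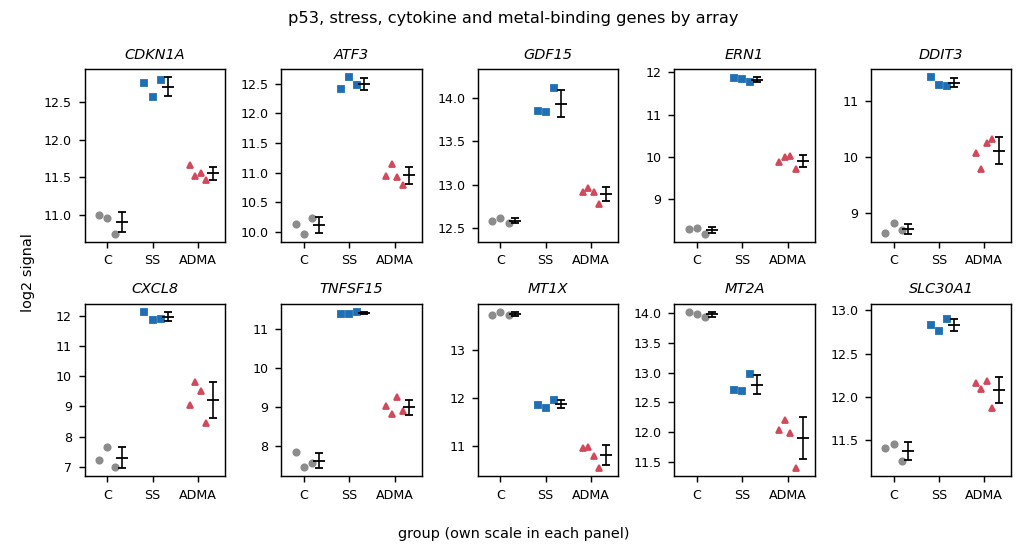
Log2 signal (vertical, own scale in each panel) of p53 target, stress response, cytokine and metal-binding genes on each array of cells with serum (C, grey circles), serum-free cells (SS, blue squares) and serum-free cells with ADMA (red triangles), with the mean and SD of each group in black. CDKN1A, ATF3, GDF15, ERN1, DDIT3, CXCL8, TNFSF15 and SLC30A1 with ADMA lie between the other groups, and MT1X and MT2A with ADMA lie under both.

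More inflammatory genes fell than rose. Of 25 tested NF-κB targets and chemokines 11 fell and 2 rose, with a median of -0.37. CXCL1 (-0.84), CXCL2 (-0.82) and CXCL3 (-0.98), which share a receptor with CXCL8, fell, as did the plasminogen activator PLAU (-1.33) and the siderophore-binding LCN2 (-1.03). Feedback genes fell too, TNFAIP3 (-0.76), which removes ubiquitin from the pathway, and RELB (-0.74). The 2 rises were the interleukins IL1B (0.80) and IL18 (0.38). Interferon-stimulated genes were called in shares near those of all genes tested (15.7% and 13.8%), 7 higher and 7 lower of 40. With centring 5 were higher and 11 lower, beside 902 and 2096 of the 12342 genes tested. IFIT2 (0.86), the immunoproteasome subunit PSMB8 (0.75), IFITM2 (0.70) and IFITM3 (0.66) rose, and TRIM22, DDX60 (-0.76), XAF1 (-0.70) and IRF7 (-0.67) fell.

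Among 17 genes of the EGFR family and its regulators 8 fell and 3 rose, beside 13.8% and 15.7% of all genes tested. The ligands EREG (-1.28), TGFA (-0.86) and HBEGF (-0.79), the receptor EGFR (-1.05) and its inhibitor ERRFI1 (-1.05) fell, and the sister receptors ERBB2 (0.59) and ERBB3 (0.41) and the ligand BTC (0.44) rose. MAPK phosphatases, which the pathway induces against itself, were lower for DUSP1 (-1.34), DUSP4 (-1.14) and DUSP5 (-1.06) and higher for DUSP6 (0.42). For DUSP1 the second tested probe set was at 1.06, so that its direction is uncertain. With the mean over probe sets EGFR, TGFA, HBEGF, ERBB2, BTC and DUSP1 were not called, and with centring ERBB3, BTC and DUSP6 were not. Of AP-1 and immediate early genes 10 fell and 3 rose of 26: MAFF (-1.27), CCN1 (-0.91) and TIPARP (-0.81) fell, and MYC (0.59) and EGR1 (0.57) rose. YAP and TEAD targets fell in 8 and rose in 1 of 21 cases, with CCN2, the coagulation starter F3 (-1.30), CCN1 and AMOTL2 (-0.83) in the lead.

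Metallothioneins bind zinc and copper, are raised by zinc through the factor MTF1, and were bright in the cultures with serum. MT1X read 11.86, 11.80 and 11.97 on the 3 SS arrays and 10.96, 10.98, 10.79 and 10.53 on the 4 ADMA arrays, a difference of -1.06 (standard error 0.09, adjusted p = 5.22e-07), against 13.76 with serum. MT2A read 12.71, 12.70 and 12.98 on the 3 SS arrays and 12.04, 12.21, 11.99 and 11.40 on the 4 ADMA arrays, a difference of -0.88 (standard error 0.14, adjusted p = 0.000159), against 13.97 with serum. For both genes the ADMA arrays lay under every SS array, and the SS arrays under every array of the parallel cultures with serum. MT1F (-0.81), MT1G (-0.80), MT1H (-0.72) and MT1E (-0.63) fell too, and MT1M, at -0.17 (standard error 0.08), was not called. These genes are near-identical copies whose probe sets may share transcripts, so that their falls are not separate measurements, and MT1G, whose second probe set was under the filter, was at 0.04 with the mean of both.

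Among 24 tested genes of metallothioneins and zinc transport 8 fell and 2 rose. SLC30A1, the exporter that MTF1 also induces, read 12.83, 12.76 and 12.90 on the 3 SS arrays and 12.16, 12.09, 12.19 and 11.87 on the 4 ADMA arrays, a difference of -0.75 (standard error 0.08), but unlike the metallothioneins it stood above its level with serum, 11.37. The exporter SLC30A7 (-0.51) fell, and the importers SLC39A10 (0.82) and SLC39A4 (0.36) rose, the latter not with centring. MTF1 was at -0.36 (standard error 0.12, adjusted p = 0.0266) and was not called. The metal response element that MTF1 binds has the core TGCACNC or TGCGCNC, and it was found on either strand in each of the 3 metallothionein promoters with a RefSeq entry, against 38.8% of the genes tested and 29.3% of all promoters. The core is not particular to them: it was found in 54.5% of the DNA replication promoters and 49.2% of the mitosis promoters, lists that rose. The 250 bases before the start are given with the core in capitals, with 8 matches in MT1H, 4 in MT1X and 7 in MT2A (GRCh38.p14, all within the metallothionein cluster).
MT1H promoter (chr16:56669564-56669813, strand +): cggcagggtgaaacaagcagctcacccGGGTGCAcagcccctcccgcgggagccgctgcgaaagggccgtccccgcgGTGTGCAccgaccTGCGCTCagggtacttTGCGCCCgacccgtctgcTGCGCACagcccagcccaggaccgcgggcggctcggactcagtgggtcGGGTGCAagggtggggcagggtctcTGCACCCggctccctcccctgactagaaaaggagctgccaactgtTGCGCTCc
MT1X promoter (chr16:56682220-56682469, strand +): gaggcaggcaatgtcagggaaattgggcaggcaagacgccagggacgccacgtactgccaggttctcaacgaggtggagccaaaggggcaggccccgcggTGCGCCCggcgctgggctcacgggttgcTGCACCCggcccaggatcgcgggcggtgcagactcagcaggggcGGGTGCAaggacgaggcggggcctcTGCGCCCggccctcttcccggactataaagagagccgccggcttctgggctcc
MT2A promoter (chr16:56608334-56608583, strand +): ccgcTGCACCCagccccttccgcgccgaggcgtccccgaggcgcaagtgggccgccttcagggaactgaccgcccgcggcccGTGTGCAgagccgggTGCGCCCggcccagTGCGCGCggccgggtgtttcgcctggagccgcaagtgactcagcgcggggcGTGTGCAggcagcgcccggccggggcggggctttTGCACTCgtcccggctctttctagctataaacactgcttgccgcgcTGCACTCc

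The enzymes and transporters that handle ADMA were themselves moderately affected. Of 29 tested genes 11 rose and 3 fell, with a median of 0.19. The cationic amino acid transporter SLC7A2, one of the carriers of arginine and ADMA, read 7.12, 7.55 and 6.92 on the 3 SS arrays and 8.63, 8.43, 8.04 and 8.47 on the 4 ADMA arrays, a difference of 1.196 (standard error 0.17, adjusted p = 7.43e-05). Of the other carriers SLC7A7 rose by 0.74 (standard error 0.06) and SLC7A1 was at 0.06 (standard error 0.06), which was not called. PRMT1, the main enzyme that places asymmetric dimethylarginine in proteins, rose by 0.80 (standard error 0.09) and PRMT3 by 0.39 (standard error 0.07), whereas PRMT5, CARM1 and PRMT6 were not called, at 0.21, 0.29 and 0.12.

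DDAH1, which breaks ADMA down to citrulline, read 12.75, 12.80 and 12.83 on the 3 SS arrays and 12.98, 13.10, 13.10 and 13.22 on the 4 ADMA arrays, a difference of 0.31 (standard error 0.06), which was not called with the mean over probe sets, quantile normalization (adjusted p = 0.00374, a difference of 0.22 and thus under the fold threshold) or centring (adjusted p = 0.116), and DDAH2 was at -0.09 (standard error 0.16, adjusted p = 0.682) and was not called. Of the nitric oxide synthases, NOS3 was at -0.11 (standard error 0.15, adjusted p = 0.6) and NOS1 at -0.05 (standard error 0.27, adjusted p = 0.908). NOS2 was under the filter: its SS values of 2.51, 2.22 and 2.04 were all under background, and its ADMA values were 2.61, 3.67, 5.30 and 6.09, above background on 1 of 4 arrays. Arginase 2 (ARG2), which takes arginine to ornithine, fell from 10.93, 10.80 and 10.88 to 10.00, 10.14, 10.21 and 10.27, a difference of -0.72 (standard error 0.08). The urea cycle enzymes ASS1 (0.43) and ASL (0.41), which rebuild arginine from citrulline, NOSTRIN (0.51), which sequesters the endothelial synthase, and ornithine decarboxylase (ODC1, 0.50) rose, and the polyamine-acetylating SAT1 fell, with -0.32. SLC7A2, PRMT1 and SAT1 lost their call when probe sets were averaged. With the arrays centred on their medians 4 of the 29 rose, beside 902 of the 12342 genes tested, and ASS1, ASL, NOSTRIN and PRMT3 were not among the 4.

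Mitochondrial genes rose by small amounts. Of 52 subunits of the respiratory chain 32 rose and none fell, with a median of 0.31, and of 62 mitochondrial ribosomal proteins 30 rose and none fell. The complex I subunits NDUFB7 (0.67), NDUFB10 (0.63) and NDUFV1 (0.61), cytochrome c1 (CYC1, 0.59) and the mitochondrial ribosomal proteins MRPL4 (0.75) and MRPL35 (0.67) led. With quantile normalization the respiratory chain had 17 rises and with centring 11, and the mitochondrial ribosome 31 and 7.

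In the TCA cycle and glutamine use 15 of 32 genes rose (6 with centring), among them citrate synthase (CS, 0.63), SDHC (0.63), glutamate dehydrogenase (GLUD1, 0.57) and PDHB (0.50), and the pyruvate carrier subunit MPC1 fell, at -0.38. PDK3 (0.75), which switches pyruvate dehydrogenase off, rose as well. In glycolysis and the pentose phosphate path 9 rose and 4 fell of 26: PFKL (0.64), PFKM (0.62) and TALDO1 (0.62) rose, and the neuronal enolase ENO2 (-0.80), PFKFB2 (-0.51), the glucose transporter SLC2A1 (-0.51) and HK1 (-0.37) fell. The call of HK1 was lost without the first or the third SS array, with quantile normalization 5 of the list rose and 4 fell, and with centring 4 rose and 6 fell. ENO2 and SLC2A1 are also hypoxia targets, and that list was lower in 13 and higher in 2 of 30 cases, with INSIG2 (-1.15), NDRG1 (-0.93), VEGFA (-0.88) and ERO1A (-0.87) in the lead, while HIF1A was at -0.08 and was not called.

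Lipid genes were called in both directions. Beside FABP1, 8 of the 27 tested genes of fatty acid oxidation and PPAR targets rose and none fell, led by the thiolase ACAA2 (0.96), ECI1 (0.64), ETFB (0.63) and DECR1 (0.59). With centring 7 of all 27 rose and 1 fell, and without the second ADMA array 9 rose and 1 fell. In fatty acid synthesis the elongase ELOVL6 (1.08) and acetyl-CoA carboxylase (ACACA, 0.62) rose, and the fatty acid-activating ACSL4 (-0.62) and ACSL5 (-0.63) fell, although ACSL4 was at 0.01 with the mean over probe sets. Cholesterol synthesis was mixed, with 5 higher and 3 lower of 20 (2 and 3 with centring), beside 15.7% and 13.8% of all genes tested. TM7SF2 (0.59) and PMVK (0.57) rose, and MVD (-0.60) and SC5D (-0.47) fell. The sterol-regulated genes SQLE, IDI1 and INSIG1, at 0.04, 0.05 and 0.12, were not called.

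Cytosolic ribosomal proteins rose in 35 of 51 cases and fell in none, with a median of 0.33, but with quantile normalization none of the 51 was called and the median was 0.00, and with centring 5 were. Leaving out the first SS array gave 20. These genes are among the brightest, and of the 145 genes with a mean log2 signal of 14 or more on the 7 arrays 139, or 95.9%, were above 0, with a median of 0.31, ribosomal proteins among them. The bright spiked-in control cre, which is not cell RNA, was also higher on every ADMA array than on every SS array. Its bearing on these rises was not tested. RPL23A (0.48) and RPS18 (0.46) had the highest differences, and for RPS19 (0.43) another probe set was called the other way, at -0.76. Ribosome biogenesis genes, which are of middle signal, rose in 20 of 45 cases and in 19 with quantile normalization but 5 with centring, led by MRTO4 (0.80), NOP16 (0.73) and the rRNA methyltransferase fibrillarin (FBL, 0.69). Spliceosome genes rose in 29 of 60 cases and fell in 4, with SRSF1 (1.12), HNRNPM (0.78) and SNRPF (0.76) at the top and SF3A2 (-0.74) at the bottom, and proteasome genes rose in 15 of 37 cases and fell in none; with centring 12 spliceosome and 7 proteasome genes rose.

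**Figure D5:**
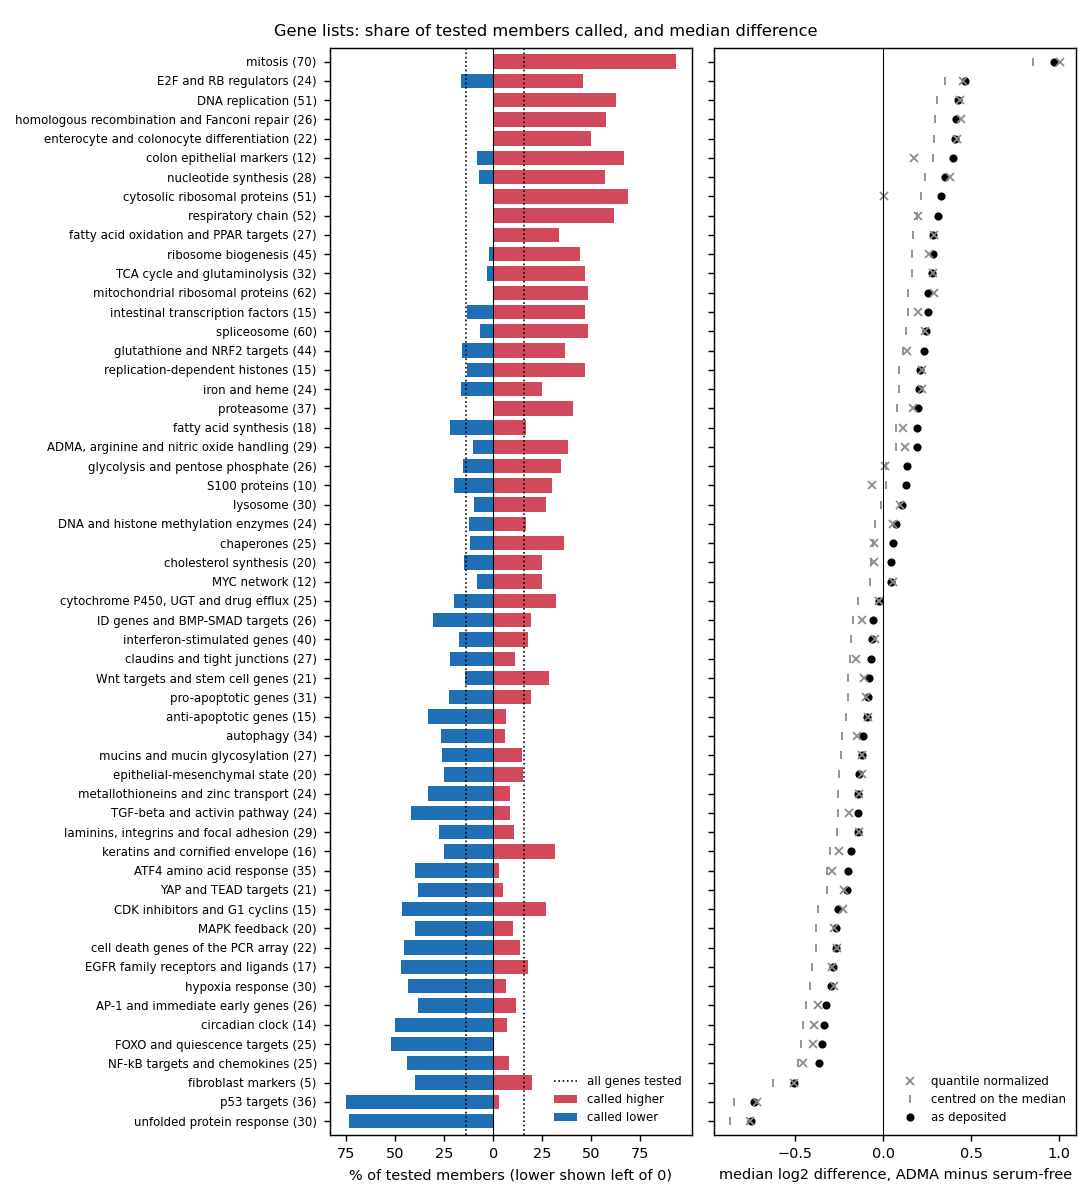
Left, percent of the tested members of each gene list called higher (red) or lower (blue) with ADMA, with the share over all genes tested as dotted lines (15.7% higher, 13.8% lower) and the number tested in brackets. Right, median log2 difference of the tested members as deposited (black), with quantile normalization (crosses) and with arrays centred on the median (ticks); mitosis stands highest at 0.97, the unfolded protein response is at -0.75, and the cytosolic ribosomal proteins move to 0.00 with quantile normalization.

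Detoxification genes held several of the larger rises. Glutathione transferase GSTA4 rose by 1.95 (standard error 0.08), catalase (CAT) by 1.17 (standard error 0.06), GSTM4 by 0.92 (standard error 0.14) and GSTM3 by 0.90 (standard error 0.12), whereas SLC7A11 (-0.70), UGDH (-0.62), AKR1C1 (-0.36), GCLC (-0.33) and TXNRD1 (-0.33), all known targets of NRF2, fell. The list of glutathione genes and NRF2 targets had 16 higher and 7 lower of 44, or 10 and 7 with centring. The retinoic acid-degrading CYP26A1 (1.92), the decarboxylase DDC (1.91), the epoxygenase CYP2J2 (1.42) and UGT1A6 (1.17), whose probe set may read other UGT1A transcripts, rose, and the aryl hydrocarbon receptor (AHR, -0.94), CYP3A4 (-0.66) and the efflux pump ABCB1 (-0.50) fell. The iron oxidase hephaestin (HEPH) rose by 0.89 and ferrochelatase (FECH) by 0.52.

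Among keratins KRT20 and KRT13 (2.003) rose and KRT80, KRT7 (-0.45), SCEL and SPRR3 (-0.89), the last 2 of the cornified envelope, fell, while the simple epithelial KRT8 (0.43) and KRT18 (0.40) rose, neither of which was called with quantile normalization or centring. KRT7 was at 0.11 with the mean over probe sets. Of 29 adhesion genes 3 rose, fibronectin, laminin β1 (LAMB1, 0.54) and thrombospondin 1 (THBS1, 0.42), and 8 fell, among them laminin β3 (LAMB3, -1.15), zyxin (ZYX, -0.75) and the collagen receptor ITGA2 (-0.63). Over all genes tested 15.7% rose and 13.8% fell, so that the adhesion rises were under the general share. Claudins moved apart, CLDN11 up and CLDN12 (-1.26), CLDN4 (-0.49) and CLDN3 (-0.39) down, and the call of CLDN11 was lost with the mean of its probe sets in place of the brightest. Circadian clock genes fell in 7 of 14 cases, led by RORA (-1.37) and NR1D2 (-0.99), and BHLHE41 (0.41) was the 1 rise.

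The direction relative to serum can be read from the same arrays, with the reservation that the SS arrays enter both differences. The median member of the p53 list was 0.99 for SS against C and -0.73 for ADMA against SS, that of NF-κB targets 1.30 and -0.37, and that of the unfolded protein response 0.61 and -0.75. For mitosis the values were -1.78 and 0.97 and for DNA replication -1.57 and 0.42. The enterocyte list moved one way in both, with medians of 0.56 and 0.41, and the metallothioneins MT1X and MT2A had ADMA levels further from those with serum than the SS levels were.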

How the data were processed

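RNA of LoVo cells was hybridized to Affymetrix HG-U133 Plus 2.0 arrays. The deposited values are 1 intensity per probe set, which the authors computed with MAS 5.0; the trimmed mean of an array, without its highest and lowest 2%, was 500.1 throughout. The platform annotation gave 1 gene symbol to 41091 of the 54675 probe sets, several to 1801 and none to 11721, and 62 were controls. Only probe sets with 1 symbol were named. Intensities were turned into log2 values without a pseudocount, each of 19775 genes was read from its probe set with the highest mean log2 signal, and genes with a mean signal under 76.3, the middle of all probe sets, were left out, so that 12342 were tested. A limma model (version 3.58.1, R 4.3.3, eBayes with a trend) covered the 10 arrays and left 7 residual degrees of freedom, and its p-values were adjusted over all genes tested (Benjamini-Hochberg). The thresholds, 0.01 and 1.2-fold, are those of the study's SAM analysis, which was not run here. With SAM and its own filter on probes the study reported far fewer genes for this comparison. The counts given here are therefore not those of the study, and the source of the gap was not tested. The background level of an array was the 95th percentile of 27 Bacillus control probe sets that were not spiked in. Plots were made with matplotlib 3.10.9 under Python 3.11.15.

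The comparison and the 59 gene lists were chosen with earlier results of these data known, and no list was tested as a set. Of 1893 list entries 1733 had a probe set, and genes without one are not analysed here. Named genes are the 20 largest rises and falls among called genes whose SS and ADMA arrays do not overlap, the 5 largest changes among the called members of each list (its brightest member where none was called), all members of the lists on ID and BMP genes, zinc, ADMA handling and the PCR array, the enzymes of glycolysis, TCA cycle and glutamine use, and 76 further members chosen after their values were seen. Promoter sequences are those of RefSeq on GRCh38.p14, and a motif match is a run of letters, not a bound site. Arrays of 1 group correlated at 0.937 to 0.946. The simulated data for this comparison had 12342 genes, 200 of them seeded with a change. In them limma recovered 36.25% of log2 changes of 0.5, 77.5% of those of 1 and 97.5% of those of 2, and made 2 false calls. In the data 29.5% of the genes tested were called. Since the adjustment of p-values depends on the share of genes that differ, these rates do not carry over to the data. Alternatives were quantile normalization, centring, no filter or a stricter one, limma with no trend or with weights per array, the 7 arrays alone, an adjusted p under 0.05, other choices of probe set, a pseudocount of 16, signals taken at background, a replicate block, and omission of single arrays. The number of arrays limits the precision.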

Additional observations from a re-analysis of the deposited data

Results flagged for a closer look

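For 30 of 479 named genes, 1 of the 4 ADMA arrays stood apart from the other 3, its gap to the nearest one exceeding Dixon's critical share of the range; chance flags about 1 in 20 such groups. All values are log2 signals. The first array was the highest for C1GALT1 (9.16, next 8.91), NOX1 (8.43, next 8.17) and SMAD1 (10.53, next 10.29). The first array was the lowest for BMP7 (9.64, next 9.88), FAS (11.40, next 11.51), MCL1 (12.45, next 12.54), PGLS (12.34, next 12.59) and SEL1L (10.16, next 10.28). The second array was the highest for IRF7 (9.39, next 9.15). The second array was the lowest for ACACA (11.25, next 11.54) and CDK2 (11.18, next 11.46). The third array was the highest for KRT20 (11.86, next 11.58) and ST6GALNAC1 (8.93, next 8.66). The third array was the lowest for CEACAM7 (10.20, next 10.50), ECI1 (11.69, next 11.79), RPE (10.98, next 11.08) and SMAD6 (9.14, next 9.32). The fourth array was the highest for ALDOA (14.51, next 14.36), KRT18 (15.16, next 14.94), NDUFA9 (12.51, next 12.26), RPL23A (15.06, next 14.78), RPS18 (15.05, next 14.77), RPS19 (15.51, next 15.28), S100P (14.80, next 14.59), SLC39A8 (10.38, next 10.23) and TPI1 (14.20, next 14.06). The fourth array was the lowest for ACTA2 (9.50, next 9.75), CDKN2A (9.28, next 9.52), CDX2 (9.43, next 9.53) and CPOX (10.58, next 10.82). Among those highest on the fourth array are the ribosomal protein genes RPL23A, RPS18 and RPS19 and the glycolysis genes ALDOA and TPI1, all of high signal. CDX2, KRT20, NOX1, ST6GALNAC1 and FAS were called in the comparison without depending on the array that stood apart, which lay on the same side of every SS array as the other 3.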

How the results depend on the processing

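The counts of 1935 higher and 1704 lower genes moved by over 1.5 times under 2 alternatives as to one of their directions: centring on the median gave 902 higher and 2096 lower, and the mean over a gene's probe sets 1376 higher and 928 lower. Quantile normalization gave 1872 and 1732, and leaving out each array in turn 1545 to 1917 higher and 1294 to 1704 lower genes. Same-numbered SS and ADMA arrays deviated together with correlations of 0.078, 0.013 and 0.086, so that the numbers were not taken as pairs; with the replicate number as a block, which gives no weight to ADMA array 4, 1644 and 1439 genes were called, and 22 calls of named genes were lost. Of the named genes 19 calls were lost with quantile normalization, 48 with centring, 116 with the mean over probe sets and 33 without the trend, and none with a pseudocount of 16 or signals taken at background. With quantile normalization direction was reversed for LDHA (-0.020) and for the medians of cholesterol synthesis (-0.052), chaperones (-0.054) and S100 proteins (-0.066). Centring reversed the medians of all genes (-0.091), lysosome (-0.0098), cholesterol synthesis (-0.069), chaperones (-0.060), the MYC network (-0.072) and DNA and histone methylation enzymes (-0.045). Without a filter the medians of keratins (0.068), the epithelial-mesenchymal list (0.079) and fibroblast markers (0.27) were above 0, and with a filter at the 75th percentile those of Wnt targets (0.072) and keratins (0.34). The mean over probe sets reversed ACSL4 (0.013), DDAH1 (-0.0049), HK2 (0.64), KRT7 (0.11), MRPL23 (-0.10), MT1G (0.038), TKT (-0.37), XBP1 (0.068), ZFP36L1 (0.25) and the pro-apoptotic median (0.0022), and the probe set with the highest median reversed MLXIP (-0.14). The cytochrome P450 median was 0.020 with the replicate block. On leaving out 1 array it ran from -0.075 to 0.048, the anti-apoptotic median from -0.15 to 0.0032 and the mucin median from -0.13 to 0.019. The causes were not tested. Dim genes are limited by background: 4 of the higher genes had SS under it on all 3 arrays.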
